A study of Mus musculus with 157 samples.

Results

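The comparison is of alum, an aluminum hydroxide salt, with PBS in mouse bone marrow-derived macrophages, measured by RNA sequencing in 2 alum and 3 PBS libraries. These 5 libraries, of 157 samples in the series, were taken by their column names in the deposited table of the particle experiment. Bone marrow of C57BL/6 mice, labelled WT, was grown in DMEM with 10% serum and M-CSF at 16 ng/mL, refreshed at 72 h. On day 6 the macrophages were replated, and they then received alum at 250 µg/mL (labelled aluminum particles) or PBS alone (labelled vehicle). Groups of the same experiment given 250 µg/mL of monosodium urate crystals (MSUc), of calcium pyrophosphate dihydrate crystals (CPPD) or of silica served for the spread between libraries, and MSUc and CPPD also for a direct comparison of particles. The hours of exposure for these libraries are not given in the sources used here. Nothing in the labels says that replicates came from separate mice or cultures, so the p-values measure the spread between these libraries, which may be technical. Each library carries a replicate number only.

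The labels list 3 alum and 2 silica samples, whereas the table has 2 alum and 3 silica columns, so every alum value below is from 2 libraries and 1 silica column with no sample of its own stayed unused. Recovered depth was 8482310 and 9126071 reads in the alum libraries and 10112760, 4324097 and 18481790 reads in the PBS libraries. Of 24940 genes in the table, 12314 reached 1 TPM, a level scaled by transcript length and library total, in at least 2 of the 13 libraries and were tested. The macrophage markers were present: Csf1r, Adgre1, Cd68, Lyz2, Fcgr1, Mertk, Itgam and Cd14 were above 0 in every library, and Csf1r had 1630.0 and 1771 TPM in the alum libraries, against 1498, 1420.2 and 1662 TPM in the PBS libraries. Their summed level was 16596 to 16864 TPM with alum and 28309 to 31126 TPM with PBS, a difference carried by Lyz2, the lysozyme gene, at 11314 and 10889 TPM with alum, against 22958, 23239 and 25630.1 TPM with PBS. In bulk RNA, fewer cells of a type and less RNA per cell cannot be told apart. Some libraries stood apart within their group. PBS replicate 1 had higher interferon-stimulated genes than the other PBS libraries, PBS replicate 2 higher pancreatic protease genes, and alum replicate 1 higher collagen genes, as values given below show.

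Aluminium salts are used as vaccine adjuvants and form particles that macrophages engulf. Phagocytosed particles are carried to lysosomes, where an acid pH and hydrolases act on them, and damage to that compartment is a known trigger of the NLRP3 inflammasome, which matures IL-1β. Stressed macrophages also run programs shared by many stimuli: immediate early transcription, NF-κB targets such as chemokines, the integrated stress response, the antioxidant program of NRF2 and the lysosomal program of the MiT/TFE factors.

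Transcript length set the frame for every change. In the alum libraries longer transcripts had relatively more and shorter ones relatively fewer reads than with PBS. The correlation of level with length across genes within a library (Spearman's rho) was 0.16 and 0.16 in the alum libraries, against 0.0048, -0.012 and 0.011 in the PBS libraries, and the 2 groups did not overlap. Mean rho was 0.16 with alum and 0.0014 with PBS. An exact two-sided permutation test gave p = 0.1, the smallest that 10 splits of 2 and 3 libraries allow. Against all 11 other libraries of the experiment, whose rho lay between -0.012 and 0.051, the same exact permutation test gave p = 0.0128, the smallest of 78 splits. Those 11 libraries belong to 4 treatment groups with like values within each, so they are not exchangeable single libraries, and this p describes only the rank of these libraries. The length at the midpoint of the reads told the same: 3774 and 3785 nt in the alum libraries, 3198, 3084 and 3226 nt in the PBS libraries, and 3007 to 3337 nt in all libraries without alum. MSUc and CPPD did not share it to that degree. Across the 12314 genes, which are not independent replicates, rho of the log2 change with length was 0.49 for alum minus PBS, 0.44 for alum minus MSUc and 0.44 for alum minus CPPD, beside 0.093 for MSUc minus PBS and 0.14 for CPPD minus PBS. What produced the trend was not tested.

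**Figure D1:**
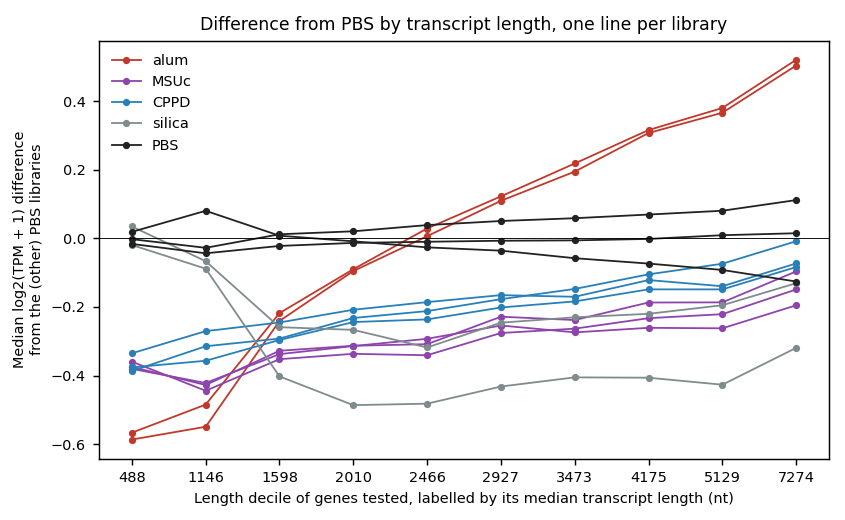
Median difference of log2(TPM + 1) from PBS (y axis) in each of 10 classes of the genes tested, ordered by transcript length (x axis, labelled by the median length in nt), 1 line per library; a PBS library is set against the other PBS libraries. The 2 alum lines climb from the shortest to the longest class, while the other lines stay flatter.

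In 10 classes of nearly equal size by length, the genes went from a median log2 change of -0.56 in the shortest class (21 to 861 nt) to 0.52 in the longest (5935 to 83436 nt). The shortest class holds 2 kinds of entries. The 504 genes under 200 nt had a median of 0.22, and the 728 others of that class had -0.93. Each gene is therefore given below with its transcript length and with a second, length-adjusted log2 change, from which the length trend of each library was subtracted. In the text, a gene "rose" or "fell" only if limma called it in 1 direction at an adjusted p under 0.05 both as deposited and after that adjustment. After it, the classes had medians of 0.07 to 0.10, and rho with length was -0.02. Narrower bins were level as well, except that the 97 genes of 400 to 500 nt kept a median of -0.27 (-0.05 for the 71 of them outside the ribosomal and respiratory lists) and genes up to 200 nt one of 0.31.

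As deposited, 5694 of 12314 genes (46.2%) were called, 3335 up (27.1%) and 2359 down (19.2%). Length adjustment ended the call of 1210 of the higher and 1251 of the lower genes, added 536 and 330, and turned 18 lower genes to higher. What remained by the rule above was 3215 genes (26.1% of all tested), 2125 rises (17.3%) and 1090 falls (8.85%). These shares of rises and falls are the background for every list count against PBS below. With median-of-ratios scaling between libraries, which lowers the median of all genes from 0.08 to -0.01, the rule gave 1668 rises and 1527 falls. Leaving out alum replicate 2 gave 1426 rises and 603 falls, and leaving out alum replicate 1 gave 1528 and 760. The remaining calls were still uneven by length: among the 2465 shortest genes (up to 1376 nt) 6.09% rose and 14.4% fell, and among the 2463 longest (from 4576 nt) 24.0% rose and 3.004% fell. The rule also needs a call as deposited and so carries part of the length trend over, which makes this unevenness no separate result. Shares over all genes are therefore not matched to lists of short or long genes. Libraries of the 2 groups did not overlap for 8518 genes (69.2%), so a lack of overlap alone says little about any gene. That holds wherever a lack of overlap is given below.

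**Figure D2:**
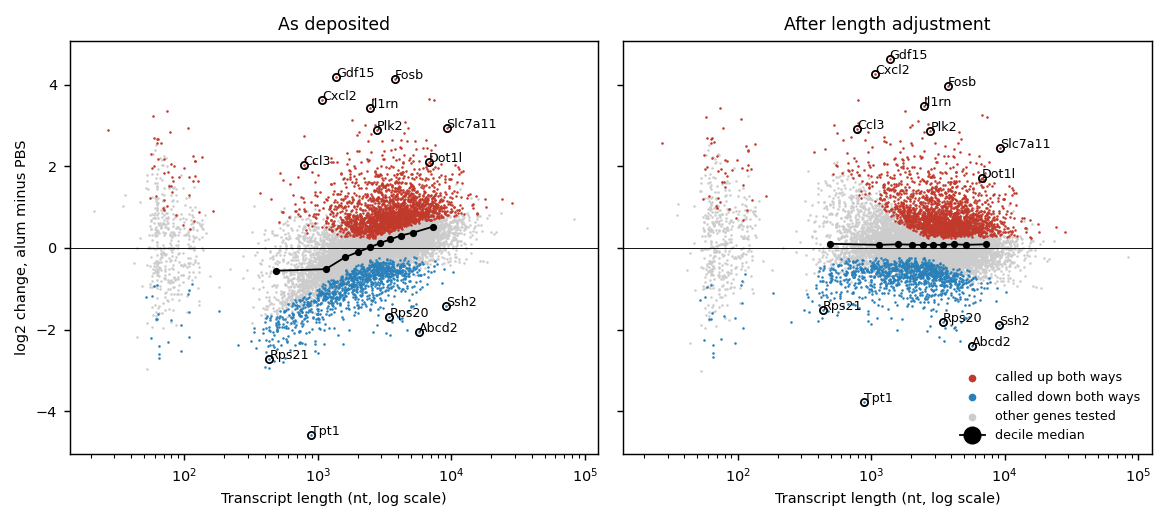
Log2 change, alum minus PBS (y axis), against transcript length in nt (x axis, log scale) for the 12314 genes tested, as deposited (left) and after length adjustment (right). The black line joins the medians of the length classes, which run from -0.56 to 0.52 on the left and lie between 0.07 and 0.10 on the right, while Gdf15, Cxcl2 and Tpt1 stay far from the line in both.

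Among secreted signals, a stress cytokine and several chemokines were higher with alum. Gdf15, a stress-induced cytokine of the TGF-β family, had 94.9 and 111 TPM with alum and 3.46, 6.85 and 4.43 TPM with PBS, a log2 change of 4.17 ± 0.32, adjusted p = 1.4e-06, and 4.61 after length adjustment (1376 nt). Both alum libraries were more than 10 times above every PBS library. Cxcl1, Cxcl2 and Cxcl3 are CXC chemokines that draw neutrophils, and CC chemokines such as Ccl2 and Ccl7 draw monocytes. Of 16 chemokine genes tested 7 rose and 0 fell by limma (background 17.3% and 8.85%, with 3 of the 16 lower at an unadjusted p under 0.05 as deposited), with a list median of 0.81, and of 1.75 after length adjustment, since the genes are short (median 978 nt). All genes tested had 0.08 on both scales. Cxcl2 had 74.0 and 72.5 TPM in the alum libraries, against 3.46, 6.56 and 5.66 TPM in the PBS libraries, a log2 change of 3.61 ± 0.31, adjusted p = 3.1e-06, and 4.25 after length adjustment (1077 nt). Cxcl1 had 7.41 and 6.43 TPM with alum, against 1.23, 0.312 and 1.22 TPM with PBS, and Cxcl3 had 2.12 and 2.83 TPM with alum and was listed at 0 in each PBS library. No alum library overlapped a PBS library for these 3 genes, all on chromosome 5.

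The promoters of these 3 genes are shown because each holds the same NF-κB match and the genes rose together. Printed are the 150 bases before the start site (RefSeq, GRCm38.p6, plus strand, chr5:90891095-90891244, chr5:90903749-90903898 and chr5:90785951-90786100), and capitals mark GGANTTTCC, searched on both strands.
Cxcl1: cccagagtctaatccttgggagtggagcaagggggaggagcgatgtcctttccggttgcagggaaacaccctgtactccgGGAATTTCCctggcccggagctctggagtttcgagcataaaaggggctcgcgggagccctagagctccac
Cxcl2: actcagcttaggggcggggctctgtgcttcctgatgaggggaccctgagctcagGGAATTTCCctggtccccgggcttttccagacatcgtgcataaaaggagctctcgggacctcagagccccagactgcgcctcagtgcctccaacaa
Cxcl3: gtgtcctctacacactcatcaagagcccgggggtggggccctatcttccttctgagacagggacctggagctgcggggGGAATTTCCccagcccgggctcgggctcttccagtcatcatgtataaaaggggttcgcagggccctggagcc
The match starts at -70, -96 and -72 from the start site of Cxcl1, Cxcl2 and Cxcl3. Of the 11 chemokine genes with a promoter window of 300 bases, 4 (36.4%) hold this motif, against 1.34% of the 9321 tested genes with a window, 2.13% of those that rose and 1.28% of those that fell. A match is a description of the letters and not a measured site.

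The CC chemokines rose with more spread between the alum libraries. Ccl7 had 30.7 and 13.1 TPM with alum and 3.24, 1.85 and 1.62 TPM with PBS, a log2 change of 2.74 ± 0.40, adjusted p = 0.00017, and 3.63 after length adjustment (794 nt). Ccl2, the main monocyte attractant, had 33.3 and 16.6 TPM in the alum libraries, against 4.17, 6.25 and 3.31 TPM in the PBS libraries, a log2 change of 2.17 ± 0.31, adjusted p = 0.00015, and 3.06 after length adjustment (801 nt). In both, alum replicate 1 was about 2 times replicate 2, and both replicates were above every PBS library. Ccl3 had 185 and 163 TPM with alum, against 40.5, 44.6 and 41.5 TPM with PBS, a log2 change of 2.02 ± 0.30, adjusted p = 0.00016, and 2.92 after length adjustment, and Ccl4 49.8 and 40.9 TPM with alum and 15.3, 18.4 and 20.2 TPM with PBS, a log2 change of 1.29 ± 0.38, adjusted p = 0.015, and 2.31 after length adjustment. The members without a call included Ccl5, at 17.4 and 23.7 TPM in the alum libraries, against 11.7, 10.6 and 8.86 TPM in the PBS libraries, and Cxcl10, an interferon target at 11.6 and 14.9 TPM with alum, against 24.4, 4.04 and 4.06 TPM with PBS, where PBS replicate 1 lay above both alum libraries. Ccl6 and Cxcl16, among the more abundant members, were lower as deposited only (a log2 change of -0.98 ± 0.21, adjusted p = 0.0021, and -0.57 after length adjustment and a log2 change of -0.45 ± 0.11, adjusted p = 0.0062, and -0.16 after length adjustment). Ccl4 was not called without alum replicate 1.

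Of the receptors, 1 named here fell and 1 rose. Ccr2, the receptor of Ccl2 on monocytes, had 4.35 and 4.98 TPM with alum and 16.5, 16.6 and 24.5 TPM with PBS, a log2 change of -1.81 ± 0.22, adjusted p = 3.6e-05, and -1.96 after length adjustment (3584 nt). The alum values were all below the PBS values. Ccr7, a receptor of mature dendritic cells and activated macrophages, had 5.18 and 5.13 TPM in the alum libraries, against 1.89, 1.64 and 2.18 TPM in the PBS libraries, a log2 change of 1.09 ± 0.22, adjusted p = 0.0015, and 1.27 after length adjustment.

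Of 19 cytokine and inflammasome genes, 9 rose and 2 fell, with a list median of 0.56 (0.93 after length adjustment). Il1rn, which encodes the secreted antagonist of the IL-1 receptor, had 178 and 186 TPM with alum, against 20.2, 13.8 and 15.1 TPM with PBS, a log2 change of 3.42 ± 0.17, adjusted p = 1.4e-07, and 3.47 after length adjustment (2474 nt). The agonist gene Il1b had 6.82 and 6.16 TPM with alum and 3.94, 3.96 and 5.41 TPM with PBS and was not called (a log2 change of 0.47 ± 0.65, adjusted p = 0.58, and 0.93 after length adjustment), although both alum libraries were above the PBS libraries. Il1a, Il6, Csf3 and Il12b stayed under 2 TPM in all 5 libraries. Tnf had 78.8 and 83.3 TPM in the alum libraries, against 16.4, 23.2 and 17.6 TPM in the PBS libraries, a log2 change of 2.05 ± 0.31, adjusted p = 0.00019, and 2.35 after length adjustment (1647 nt), and no library overlapped. Osm, a cytokine of the IL-6 family, had 22.4 and 26.0 TPM with alum, against 3.92, 6.97 and 5.80 TPM with PBS, a log2 change of 1.97 ± 0.21, adjusted p = 1.5e-05, and 2.17 after length adjustment. Its relative Lif had 7.92 and 2.80 TPM with alum and 0.220, 0.432 and 0.210 TPM with PBS, a log2 change of 2.18 ± 0.31, adjusted p = 0.00015, and 1.97 after length adjustment, with alum replicate 1 well above replicate 2. Csf1, which encodes M-CSF, had 29.1 and 20.1 TPM in the alum libraries, against 4.29, 4.59 and 2.39 TPM in the PBS libraries, a log2 change of 2.44 ± 0.26, adjusted p = 1.5e-05, and 2.22 after length adjustment.

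Inflammasome parts moved both ways. Nlrp3, the sensor, had 69.9 and 62.9 TPM with alum, against 22.8, 23.7 and 27.01 TPM with PBS, a log2 change of 1.40 ± 0.19, adjusted p = 8e-05, and 1.20 after length adjustment (4006 nt). Pycard, the adaptor ASC that joins the sensor to caspase-1, had 14.2 and 12.4 TPM with alum and 33.3, 33.6 and 34.3 TPM with PBS, a log2 change of -1.28 ± 0.13, adjusted p = 8.3e-06, and -1.14 after length adjustment (2130 nt). Casp4, the mouse caspase-11 gene, rose (a log2 change of 1.04 ± 0.18, adjusted p = 0.00069, and 1.45 after length adjustment), Il18, which encodes another substrate of caspase-1, fell (a log2 change of -1.40 ± 0.24, adjusted p = 0.00056, and -0.91 after length adjustment), and Casp1 itself had 42.6 and 48.2 TPM in the alum libraries, against 52.5, 48.1 and 51.6 TPM in the PBS libraries with no call. Each of the 4 called genes had alum and PBS libraries apart, as did 69.2% of all genes tested. Il18 was not called without alum replicate 2.

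In the list of adhesion molecules, proteases and coagulation genes 14 of 22 rose and 1 fell, with a list median of 1.08 and of 1.40 after length adjustment. The plasminogen system was included. Plau, urokinase, had 344 and 337 TPM with alum, against 78.7, 87.5 and 61.4 TPM with PBS, a log2 change of 2.16 ± 0.17, adjusted p = 1.3e-06, and 2.25 after length adjustment (2330 nt), and its receptor Plaur had 38.2 and 36.5 TPM with alum and 15.3, 18.9 and 19.3 TPM with PBS, a log2 change of 1.04 ± 0.17, adjusted p = 0.00039, and 1.41 after length adjustment (1499 nt). Both urokinase genes kept the alum libraries above every PBS library. Serpinb2, an inhibitor of urokinase, had 18.4 and 5.52 TPM with alum, against 1.36, 1.49 and 0.723 TPM with PBS, and alum replicate 1 was more than 3 times replicate 2. F3, tissue factor, the starter of coagulation, had 3.64 and 2.70 TPM in the alum libraries, against 0.138, 0.473 and 0.115 TPM in the PBS libraries, a log2 change of 1.75 ± 0.26, adjusted p = 0.00019, and 1.97 after length adjustment (1868 nt). Procr, the receptor of protein C, had 14.9 and 23.5 TPM with alum, against 3.86, 4.32 and 5.64 TPM with PBS, a log2 change of 1.83 ± 0.21, adjusted p = 2.3e-05, and 2.20 after length adjustment, and F10 had 5.34 and 7.72 TPM with alum and 2.54, 1.10 and 2.06 TPM with PBS. The matrix metalloproteinase genes Mmp9, Mmp12, Mmp13, Mmp14 and Mmp19 rose by 1.05 to 1.88 on the log2 scale. Icam1, an adhesion ligand of leukocyte integrins, had 114 and 128 TPM in the alum libraries, against 36.4, 37.7 and 47.6 TPM in the PBS libraries, a log2 change of 1.56 ± 0.16, adjusted p = 1.1e-05, and 1.59 after length adjustment. The integrin gene Itgal was the 1 member that fell (a log2 change of -0.65 ± 0.21, adjusted p = 0.023, and -0.95 after length adjustment). Mmp9 was not called without alum replicate 1, and Itgal not without alum replicate 1 or PBS replicate 3.

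The promoters of F3 and Plaur are shown for their AP-1 matches, TGANTCA in capitals on either strand (RefSeq, GRCm38.p6, plus strand, chr3:121723387-121723536 and chr7:24462333-24462482).
F3: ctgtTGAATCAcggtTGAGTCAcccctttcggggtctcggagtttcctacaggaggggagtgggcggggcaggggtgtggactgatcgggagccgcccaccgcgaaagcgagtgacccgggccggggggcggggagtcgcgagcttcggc
Plaur: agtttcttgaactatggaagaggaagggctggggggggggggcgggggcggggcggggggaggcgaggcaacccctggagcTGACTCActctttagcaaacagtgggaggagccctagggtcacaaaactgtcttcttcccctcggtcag
F3 holds a pair of matches, with first bases at -146 and -135, and Plaur 1 at -69. Of the 13 genes of this list with a window, 6 (46.2%) hold TGANTCA, against 4.86% of all tested genes with a window, 5.67% of those that rose and 5.02% of those that fell.

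Immediate early factors, the transcription factors made first after a stimulus, were split by member. Of 26 tested, 14 rose and 1 fell, with a median of 0.70 (0.74 after length adjustment). Fosb had 23.6 and 35.8 TPM with alum, against 0.477, 1.09 and 0.627 TPM with PBS, a log2 change of 4.13 ± 0.31, adjusted p = 1.1e-06, and 3.96 after length adjustment (3770 nt). Fos itself had 182 and 147 TPM with alum and 208, 222 and 205 TPM with PBS and was not called (a log2 change of -0.37 ± 0.20, adjusted p = 0.15, and -0.22 after length adjustment), so the AP-1 partners did not move alike. Fosl1 had 8.64 and 4.56 TPM in the alum libraries, against 0.984, 1.04 and 0.844 TPM in the PBS libraries, a log2 change of 1.91 ± 0.23, adjusted p = 4.5e-05, and 2.19 after length adjustment, and Jun 184 and 189 TPM with alum, against 67.6, 61.7 and 63.6 TPM with PBS, a log2 change of 1.52 ± 0.13, adjusted p = 2.3e-06, and 1.44 after length adjustment. Maff and Mafk, small MAF partners of NRF2 and of AP-1 factors, had 20.6 and 20.3 TPM and 42.0 and 48.2 TPM with alum, against 1.84, 2.41 and 2.17 TPM and 14.3, 11.0 and 12.9 TPM with PBS. Csrnp1 had 25.6 and 29.7 TPM with alum and 4.34, 2.83 and 3.87 TPM with PBS, a log2 change of 2.63 ± 0.24, adjusted p = 4.1e-06, and 2.57 after length adjustment. Egr2 rose (a log2 change of 2.02 ± 0.15, adjusted p = 9.5e-07, and 1.97 after length adjustment), as did Atf3 (a log2 change of 1.02 ± 0.09, adjusted p = 3.9e-06, and 1.20 after length adjustment), Klf4 (a log2 change of 1.16 ± 0.11, adjusted p = 6.1e-06, and 1.10 after length adjustment) and Klf6 (a log2 change of 1.01 ± 0.13, adjusted p = 5.8e-05, and 0.79 after length adjustment). Nr4a1, an orphan nuclear receptor, had 28.7 and 16.5 TPM in the alum libraries, against 36.9, 31.2 and 34.3 TPM in the PBS libraries with no call, and Btg2, an antiproliferative gene, fell (a log2 change of -0.88 ± 0.14, adjusted p = 0.00027, and -0.95 after length adjustment).

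**Figure D3:**
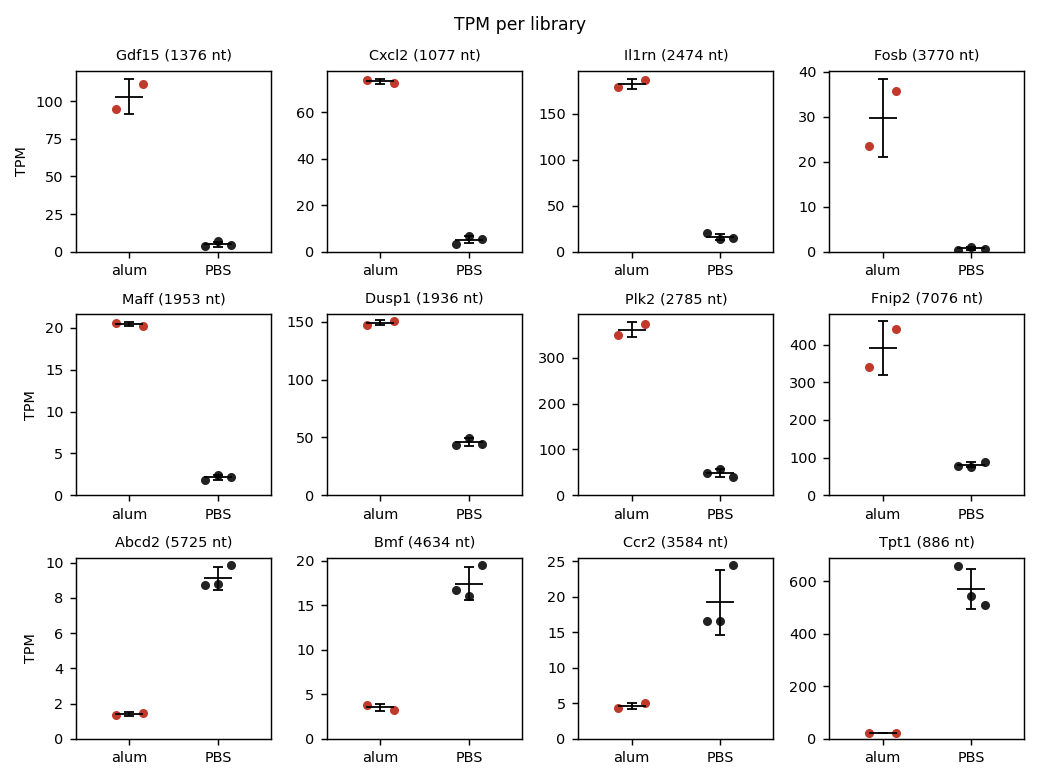
TPM of 12 named genes in the 2 alum (left in each panel) and the 3 PBS libraries (right); points are libraries, the dash is the group mean and the bars its SD. In each panel the alum and PBS points do not overlap, with Abcd2, Bmf, Ccr2 and Tpt1 lower with alum and the other 8 genes higher.

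MAPK phosphatases switch off the kinases upstream of AP-1. In the list that holds them together with other brakes on the pathway and mRNA decay factors, 8 of 14 members rose and 2 fell, with a median of 0.97 (0.83 after length adjustment). Dusp4 had 82.6 and 101 TPM with alum, against 17.6, 22.3 and 20.1 TPM with PBS, a log2 change of 2.15 ± 0.17, adjusted p = 1.6e-06, and 2.21 after length adjustment (2421 nt). Dusp1 had 148 and 151 TPM with alum and 43.8, 49.7 and 43.9 TPM with PBS, a log2 change of 1.68 ± 0.14, adjusted p = 2.6e-06, and 1.88 after length adjustment (1936 nt). Dusp8, low with PBS, had 4.54 and 5.29 TPM in the alum libraries, against 0.241, 0.551 and 0.238 TPM in the PBS libraries, a log2 change of 2.14 ± 0.21, adjusted p = 6.9e-06, and 1.87 after length adjustment (4810 nt). All 3 genes were more than 2 times higher in each alum library than in any PBS library. Dusp6, which acts on ERK, went the other way with 9.88 and 6.93 TPM with alum, against 21.4, 20.6 and 17.4 TPM with PBS, a log2 change of -1.16 ± 0.21, adjusted p = 7e-04, and -1.17 after length adjustment. Zfp36l1, whose protein speeds the decay of mRNAs rich in AU elements, also fell, with 72.6 and 54.2 TPM with alum and 138, 132 and 138 TPM with PBS, while its relative Zfp36 had 296 and 288 TPM in the alum libraries, against 265, 269.9 and 267 TPM in the PBS libraries and no call. The Dusp1 promoter is shown for its cAMP response element, TGACGTCA in capitals (RefSeq, GRCm38.p6, minus strand, chr17:26508473-26508622).
Dusp1: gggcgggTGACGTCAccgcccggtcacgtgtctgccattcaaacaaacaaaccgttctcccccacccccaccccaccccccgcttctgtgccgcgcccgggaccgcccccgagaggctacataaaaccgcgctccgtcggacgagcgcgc
The match begins at -143. The element is in 2 of the 12 windows of this list (16.7%) and in 3.39% of all tested genes with a window.

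Plk2, a stress-induced kinase, and Fam46c, a poly(A) polymerase, were among the 12 rises chosen by size. Plk2 had 350.3 and 374 TPM with alum, against 49.4, 57.0 and 39.6 TPM with PBS, a log2 change of 2.88 ± 0.15, adjusted p = 1.5e-07, and 2.87 after length adjustment (2785 nt). Fam46c had 77.6 and 113 TPM with alum and 10.8, 12.8 and 13.1 TPM with PBS, a log2 change of 2.84 ± 0.21, adjusted p = 8.9e-07, and 3.01 after length adjustment (2025 nt). Like all genes named by size, both were chosen among genes whose groups do not overlap. Saa3, an acute phase protein, had 10.6 and 35.6 TPM in the alum libraries, against 5.39, 3.37 and 5.87 TPM in the PBS libraries, a log2 change of 1.84 ± 0.60, adjusted p = 0.025, and 3.01 after length adjustment (525 nt), and alum replicate 2 was more than 3 times replicate 1. Saa3 was not called without alum replicate 2 or PBS replicate 2.

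NF-κB subunits and the brakes on them rose in 11 of 16 cases and none fell, a median of 0.79 (0.77 after length adjustment). Tnfaip3, the A20 deubiquitinase that ends NF-κB signalling, had 91.6 and 89.7 TPM with alum, against 18.8, 16.2 and 18.6 TPM with PBS, a log2 change of 2.28 ± 0.18, adjusted p = 1.6e-06, and 2.04 after length adjustment (4411 nt). Nfkbie, an inhibitor of the IκB family, had 73.6 and 63.7 TPM with alum and 24.1, 18.7 and 23.2 TPM with PBS, a log2 change of 1.60 ± 0.20, adjusted p = 5.6e-05, and 1.67 after length adjustment. Nfkb1, Nfkb2, Relb and Rel rose by 0.72 to 1.23 on the log2 scale. Nfkbiz and Nfkbid, other genes of the IκB family, had 11.8 and 12.4 TPM and 14.9 and 13.0 TPM with alum, against 15.5, 14.4 and 17.7 TPM and 17.1, 18.8 and 17.7 TPM with PBS, and were not called.

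Interferon-stimulated genes gave no such picture. Of 27 tested, 1 rose and 0 fell by limma (2 higher and 2 lower at an unadjusted p under 0.05), with a median of -0.06, or 0.08 after length adjustment, against 0.08 for all genes. Ifit1 had 14.5 and 30.6 TPM in the alum libraries, against 33.5, 8.27 and 8.68 TPM in the PBS libraries and Rsad2 21.9 and 44.2 TPM with alum, against 33.5, 6.94 and 7.83 TPM with PBS. PBS replicate 1 was the highest PBS library for both and alum replicate 2 the higher alum library, so the groups overlapped. Without PBS replicate 1, 2 of the 27 rose. The 1 call was Gbp2, a guanylate-binding protein, at 12.2 and 16.1 TPM with alum and 7.74, 4.22 and 4.93 TPM with PBS (a log2 change of 1.22 ± 0.43, adjusted p = 0.036, and 1.28 after length adjustment). Gbp2 was not called without alum replicate 1, alum replicate 2, PBS replicate 2 or PBS replicate 3. Median-of-ratios scaling ended the call of Gbp2.

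Stress programs came next. Of 27 genes of the integrated stress response and the unfolded protein response 11 rose and 0 fell (1 was lower at an unadjusted p under 0.05), with a median of 0.41 (0.55 after length adjustment). Slc7a11, the cystine importer, had 8.88 and 13.5 TPM in the alum libraries, against 0.628, 0.479 and 0.622 TPM in the PBS libraries, a log2 change of 2.93 ± 0.18, adjusted p = 2.7e-07, and 2.46 after length adjustment (9213 nt), and its partner chain Slc3a2 had 339 and 368 TPM with alum, against 146, 142 and 149 TPM with PBS. Ppp1r15a, which encodes GADD34, the phosphatase subunit that ends the response, had 44.2 and 53.0 TPM with alum and 12.5, 11.6 and 13.4 TPM with PBS, a log2 change of 1.88 ± 0.15, adjusted p = 1.4e-06, and 1.96 after length adjustment. The alum libraries were far above PBS in these 3 genes. Atf4, the central factor, had 148 and 163 TPM in the alum libraries, against 102, 109 and 88.2 TPM in the PBS libraries, a log2 change of 0.64 ± 0.12, adjusted p = 0.0012, and 0.91 after length adjustment. Chaperones of the endoplasmic reticulum rose, Hspa5 (BiP) with 432 and 459.8 TPM with alum, against 210.0, 179 and 218 TPM with PBS and Hsp90b1 with 271 and 273 TPM with alum and 184, 168 and 186 TPM with PBS. Other known targets did not pass: Ddit3 (CHOP) had 17.2 and 24.9 TPM in the alum libraries, against 18.0, 23.1 and 21.0 TPM in the PBS libraries, Asns 25.6 and 21.8 TPM with alum, against 16.7, 22.3 and 11.1 TPM with PBS and Chac1 0.343 and 0.538 TPM with alum and 0.329, 1.13 and 0.183 TPM with PBS.

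NRF2 targets numbered 21, of which 8 rose and 1 fell, with a median of 0.12 (0.27 after length adjustment). Hmox1, heme oxygenase 1, had 934 and 1009 TPM in the alum libraries, against 298, 332 and 265 TPM in the PBS libraries, a log2 change of 1.70 ± 0.13, adjusted p = 1e-06, and 2.04 after length adjustment (1569 nt). Gclc, the catalytic subunit of glutathione synthesis, had 53.2 and 55.7 TPM with alum, against 18.5, 22 and 16.0 TPM with PBS, a log2 change of 1.49 ± 0.12, adjusted p = 2.2e-06, and 1.34 after length adjustment, and Srxn1, sulfiredoxin, had 181 and 187 TPM with alum and 72.1, 82.2 and 75.2 TPM with PBS, a log2 change of 1.26 ± 0.14, adjusted p = 2e-05, and 1.24 after length adjustment. Txnrd1, thioredoxin reductase, had 237 and 247 TPM in the alum libraries, against 61.5, 63.1 and 60.4 TPM in the PBS libraries (its locus overlaps another gene on the same strand). The alum libraries exceeded every PBS library in all 4. Nqo1, often used as an NRF2 reporter, had 1.97 and 2.62 TPM with alum, against 1.50, 3.24 and 3.57 TPM with PBS and was not called, and Txn1, thioredoxin, fell (a log2 change of -1.15 ± 0.12, adjusted p = 8.8e-06, and -0.48 after length adjustment). The ferritin genes Fth1 and Ftl1 had 14529 and 16049 TPM and 5123 and 4909 TPM with alum, against 14267, 15589.8 and 15171 TPM and 6698, 8245 and 6539 TPM with PBS.

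In the list of heat shock chaperones, which also holds mitochondrial members and the factor Hsf1, 9 of 15 rose and none fell (median 0.72, or 0.75 after length adjustment). Hspa1a, an inducible HSP70, had 6.53 and 6.81 TPM with alum and 1.01, 0.632 and 1.36 TPM with PBS, a log2 change of 1.95 ± 0.17, adjusted p = 2.6e-06, and 1.94 after length adjustment (2795 nt). Hsp90aa1, an inducible HSP90, had 62.8 and 62.3 TPM in the alum libraries, against 27, 24.9 and 25.8 TPM in the PBS libraries, and Hsph1 51.6 and 51.8 TPM with alum, against 25.8, 23.8 and 26.3 TPM with PBS. Hspa1a is near-identical to its paralog Hspa1b, and Hsp90aa1 is alike in part to Hsp90ab1, so the split of reads within these pairs is uncertain. Dnajb1 had 16.6 and 16.2 TPM with alum and 17.7, 18.1 and 19.0 TPM with PBS and Hsf1, the factor of the heat shock response, 19.6 and 17.7 TPM in the alum libraries, against 18.2, 20.6 and 17.8 TPM in the PBS libraries, both without a call. Of 14 metal handling genes 6 rose and none fell: Slc11a2, an iron and manganese transporter, had 66.0 and 71.2 TPM with alum, against 16.1, 14.0 and 16.0 TPM with PBS, a log2 change of 2.09 ± 0.13, adjusted p = 2.8e-07, and 1.86 after length adjustment (4355 nt), and the zinc exporter Slc30a1 had 50.3 and 60.2 TPM with alum and 13.9, 13.7 and 13.4 TPM with PBS, a log2 change of 1.93 ± 0.10, adjusted p = 1.7e-07, and 1.63 after length adjustment (5226 nt). The metallothioneins Mt1 and Mt2 had 186 and 199 TPM and 50.7 and 45.8 TPM with alum, against 161, 202 and 161 TPM and 21.0, 33.1 and 24.7 TPM with PBS, and of these Mt2 rose (a log2 change of 0.88 ± 0.25, adjusted p = 0.012, and 2.01 after length adjustment). Mtf1, the zinc-sensing factor that drives metallothionein genes, had 9.33 and 9.06 TPM in the alum libraries, against 6.97, 6.34 and 8.17 TPM in the PBS libraries. Mt2 was not called without alum replicate 1.

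The V-ATPase is the proton pump that acidifies the lysosome. Of its 17 genes tested 9 rose and 0 fell (4 were lower at an unadjusted p under 0.05 as deposited), with a median of 0.35 (0.53 after length adjustment). Atp6v1h had 134 and 134 TPM with alum, against 55.3, 55.2 and 54.5 TPM with PBS, a log2 change of 1.27 ± 0.13, adjusted p = 8.1e-06, and 1.43 after length adjustment (2047 nt), and Atp6v1c1 291 and 300.5 TPM with alum and 158, 145 and 144 TPM with PBS, a log2 change of 0.99 ± 0.12, adjusted p = 3.4e-05, and 1.14 after length adjustment (2083 nt). Atp6v1a, the catalytic subunit, had 510.1 and 545 TPM in the alum libraries, against 291, 279 and 287 TPM in the PBS libraries, a log2 change of 0.88 ± 0.10, adjusted p = 3.1e-05, and 0.66 after length adjustment (4183 nt). The short subunits went lower as deposited and not after adjustment, as Atp6v1f (631 nt, a log2 change of -1.20 ± 0.10, adjusted p = 1.9e-06, and -0.15 after length adjustment) and Atp6v0e (790 nt, a log2 change of -0.89 ± 0.08, adjusted p = 4.6e-06, and -0.00 after length adjustment) show. The Atp6v1a promoter is shown for its CLEAR match, TCACGTGA in capitals, the element that TFEB and its relatives bind (RefSeq, GRCm38.p6, minus strand, chr16:44139260-44139409).
Atp6v1a: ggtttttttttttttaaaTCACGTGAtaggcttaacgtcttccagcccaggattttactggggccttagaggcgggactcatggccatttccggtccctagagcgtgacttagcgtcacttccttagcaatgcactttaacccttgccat
It starts at -132. In the V-ATPase list 3 of 12 windows (25.0%) hold TCACGTGA, against 2.10% of all tested genes with a window, 3.42% of those that rose and 1.40% of those that fell. Its core CACGTG was in 15% of the windows of genes that rose, 7.00% of those that fell and 10.6% of all.

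Other lysosomal genes were mixed: 10 of 44 rose and 3 fell (background 17.3% and 8.85%), with a median of 0.15, and of 0.08 after length adjustment, as for all genes tested. Without alum replicate 2 the rises were 6. Npc1, which exports cholesterol from the lysosome, had 255 and 292 TPM with alum, against 123, 116 and 119.5 TPM with PBS, a log2 change of 1.18 ± 0.11, adjusted p = 5.9e-06, and 0.88 after length adjustment (5182 nt). Its soluble partner Npc2 had 381 and 414 TPM with alum and 598, 583 and 578 TPM with PBS, a log2 change of -0.56 ± 0.08, adjusted p = 8.8e-05, and -0.66 after length adjustment, so the pair moved apart. Ctsz, cathepsin Z, rose (a log2 change of 0.54 ± 0.09, adjusted p = 0.00048, and 0.95 after length adjustment), and Ctsh, cathepsin H, fell (a log2 change of -1.08 ± 0.10, adjusted p = 4.4e-06, and -0.77 after length adjustment). In the autophagy list 8 of 27 rose and 2 fell (background 17.3% and 8.85%). Sqstm1, the p62 cargo receptor, had 1168 and 1389.7 TPM in the alum libraries, against 438, 484 and 468 TPM in the PBS libraries, a log2 change of 1.46 ± 0.13, adjusted p = 4.2e-06, and 1.63 after length adjustment (2020 nt), and Optn, optineurin, another cargo receptor, 47.3 and 57.7 TPM with alum, against 16.7, 13.9 and 13.8 TPM with PBS, a log2 change of 1.76 ± 0.12, adjusted p = 5.7e-07, and 1.77 after length adjustment (2670 nt). Folliculin, its partners and the Rag GTPases control MiT/TFE factors from the lysosome surface, and some of their genes rose. Fnip2 had 339 and 441 TPM with alum and 78.9, 75.9 and 88.0 TPM with PBS, a log2 change of 2.24 ± 0.12, adjusted p = 1.7e-07, and 1.84 after length adjustment (7076 nt), and Rragd 32.6 and 42.2 TPM in the alum libraries, against 10.0, 8.94 and 11.0 TPM in the PBS libraries, a log2 change of 1.80 ± 0.12, adjusted p = 4.3e-07, and 1.51 after length adjustment (5038 nt). Fnip1 and Rragc also rose (a log2 change of 1.34 ± 0.16, adjusted p = 4e-05, and 0.98 after length adjustment and a log2 change of 1.01 ± 0.09, adjusted p = 4.2e-06, and 1.03 after length adjustment). These 6 genes had alum libraries above every PBS library, and 69.2% of all genes tested had groups apart in either direction. Flcn, the folliculin gene, was called higher only as deposited, with 59.2 and 73.9 TPM with alum, against 49.4, 44.9 and 50.6 TPM with PBS. Rraga was called higher only after length adjustment, with 74.7 and 75.9 TPM with alum and 67.6, 68.7 and 70.2 TPM with PBS, and Rragb in neither fit, with 1.34 and 1.49 TPM in the alum libraries, against 1.19, 1.04 and 0.885 TPM in the PBS libraries. The 2 falls of the list were Atg5 and Ulk1. Of the factors, Mitf rose (a log2 change of 0.81 ± 0.11, adjusted p = 0.00012, and 0.53 after length adjustment), while Tfeb had 40.9 and 48.7 TPM with alum, against 39.7, 37.2 and 40.5 TPM with PBS and Tfe3 94.0 and 90.8 TPM with alum and 77.7, 75.8 and 85.0 TPM with PBS with no call. Core autophagosome genes such as Map1lc3b (96.5 and 107 TPM in the alum libraries, against 145, 145 and 149.6 TPM in the PBS libraries) did not rise. Atg5 was not called without whichever of the 5 libraries was left out, and Ulk1 not without alum replicate 1, alum replicate 2 or PBS replicate 3.

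Dot1l, the histone H3 lysine 79 methyltransferase, had 109 and 128 TPM with alum, against 27.1, 27.1 and 25.9 TPM with PBS, a log2 change of 2.10 ± 0.16, adjusted p = 1.3e-06, and 1.71 after length adjustment (6781 nt). In the list of Dot1l and genes of transcription elongation 10 of 16 rose and none fell. The median was 0.71, or 0.53 after length adjustment. Eaf1 had 120.1 and 129 TPM with alum and 50.8, 46.3 and 49.1 TPM with PBS, a log2 change of 1.33 ± 0.10, adjusted p = 1.3e-06, and 1.11 after length adjustment (4230 nt). Cdk9, the kinase of the elongation factor P-TEFb, had 49.5 and 53.4 TPM in the alum libraries, against 48.4, 43.6 and 49.9 TPM in the PBS libraries and no call, and its cyclin gene Ccnt1 rose (a log2 change of 0.69 ± 0.11, adjusted p = 0.00036, and 0.82 after length adjustment). Without alum replicate 2 the rises were 6. The chromatin list holds long genes, and its count depended on length: 22 of 30 remodellers and methyltransferases were called up as deposited (background 27.1%), and 7 were left after adjustment (background 17.3%). Their median length was 8706 nt, and their median change 0.63, and 0.15 adjusted. Kdm6b, an H3K27 demethylase, had 13.0 and 9.77 TPM with alum, against 2.16, 2.18 and 2.32 TPM with PBS, a log2 change of 1.93 ± 0.22, adjusted p = 2.5e-05, and 1.55 after length adjustment (6619 nt). Setd2 (8327 nt) had a log2 change of 0.54 ± 0.10, adjusted p = 0.00068, and 0.09 after length adjustment and Kmt2c (16759 nt) a log2 change of 0.55 ± 0.12, adjusted p = 0.0034, and -0.06 after length adjustment, so both ended without a call. The 7 became 2 without alum replicate 2, 4 without alum replicate 1 or PBS replicate 1, and 4 with median-of-ratios scaling.

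The transcriptional repressors Bhlhe40 and Bhlhe41, which also act in the clock, had 94.0 and 122 TPM and 91.7 and 96.2 TPM with alum, against 23.4, 20.9 and 23.9 TPM and 24.8, 22.6 and 23.0 TPM with PBS. Their log2 changes were 2.19 (2.11 after length adjustment) and 1.96 (1.60 after length adjustment). In the list of 15 that holds them and the clock genes, 7 rose and 1 fell: Cry1 rose (a log2 change of 1.55 ± 0.14, adjusted p = 3.6e-06, and 1.50 after length adjustment) and Dbp fell (a log2 change of -1.10 ± 0.18, adjusted p = 0.00044, and -0.81 after length adjustment). Without PBS replicate 1 the rises were 4. Arntl, the core activator of the clock, had 8.50 and 8.57 TPM with alum and 8.15, 10.00 and 8.44 TPM with PBS. Of 14 genes of AMPK and the restraint of mTORC1, 1 rose and 3 fell (background 17.3% and 8.85%). Sesn1, a sestrin, had 46.1 and 44.4 TPM in the alum libraries, against 103, 103 and 109.8 TPM in the PBS libraries, a log2 change of -1.20 ± 0.16, adjusted p = 9.3e-05, and -1.17 after length adjustment (2600 nt), and the catalytic subunit Prkaa1 had 36.2 and 32.1 TPM with alum, against 28.1, 26.4 and 28.5 TPM with PBS without a call. The falls were 1 without alum replicate 2 or PBS replicate 3, and the 1 rise was lost without alum replicate 2. Dbp was not called without alum replicate 1.

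Glycolysis genes rose together, 14 of 24, with 1 fall (median 0.52, or 0.63 after length adjustment). Pfkfb3, whose product drives phosphofructokinase, had 50.2 and 58.2 TPM with alum and 11.0, 9.30 and 11.0 TPM with PBS, a log2 change of 2.27 ± 0.16, adjusted p = 6.8e-07, and 1.97 after length adjustment (5161 nt). Its relative Pfkfb4 was the 1 fall, with 15.2 and 15.3 TPM in the alum libraries, against 29.7, 28.7 and 28.8 TPM in the PBS libraries, a log2 change of -0.89 ± 0.17, adjusted p = 0.00097, and -1.02 after length adjustment. Slc2a1, the glucose carrier GLUT1, had 81.1 and 86.2 TPM with alum, against 28.4, 26.1 and 27.3 TPM with PBS, a log2 change of 1.58 ± 0.14, adjusted p = 3.8e-06, and 1.62 after length adjustment, and Eno2 24.3 and 27.1 TPM with alum and 7.10, 7.43 and 5.74 TPM with PBS, a log2 change of 1.79 ± 0.15, adjusted p = 2.3e-06, and 1.74 after length adjustment. Each of these 4 had groups apart, as did 69.2% of all genes tested. Hif1a, the factor of the hypoxic program, had 138 and 119.9 TPM in the alum libraries, against 65.6, 63.4 and 69.5 TPM in the PBS libraries, a log2 change of 0.95 ± 0.14, adjusted p = 0.00022, and 0.68 after length adjustment. Gapdh was listed at only 2.15 and 3.10 TPM with alum, against 1.00, 0.208 and 1.42 TPM with PBS, and the gene has near-identical copies, so its value is uncertain. Gapdh was not called without alum replicate 2 or PBS replicate 2.

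Cholesterol synthesis and uptake genes rose in 10 of 23 cases and 1 fell (median 0.39, or 0.48 after length adjustment). Insig1, the anchor of the sterol sensor, had 94.6 and 93.1 TPM with alum and 46.7, 36.6 and 40.6 TPM with PBS, a log2 change of 1.17 ± 0.11, adjusted p = 6.6e-06, and 1.19 after length adjustment (2641 nt). Sqle, squalene epoxidase, had 79.2 and 69.8 TPM in the alum libraries, against 34.8, 28.3 and 32.1 TPM in the PBS libraries, a log2 change of 1.21 ± 0.17, adjusted p = 0.00015, and 1.20 after length adjustment (2735 nt). Both SREBP2 targets had groups apart, as did 69.2% of all genes tested. The count was 5 without alum replicate 1, alum replicate 2 or PBS replicate 2. In the list of lipid efflux and lipid-associated macrophage genes 4 of 20 rose and 3 fell, beside 17.3% and 8.85% of all genes tested, which is not far apart. Abca1 had 72.9 and 59.7 TPM with alum, against 60.7, 53.5 and 59.7 TPM with PBS with no call, Abcg1 fell (a log2 change of -0.65 ± 0.18, adjusted p = 0.01, and -1.0 after length adjustment) and Fabp4, a fatty acid carrier, rose (a log2 change of 1.07 ± 0.18, adjusted p = 4e-04, and 2.07 after length adjustment). The 3 falls became 1 without alum replicate 2, PBS replicate 1 or PBS replicate 3. Abcg1 was not called without alum replicate 1.

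Enzymes of small mediators had 6 rises and 1 fall among 18 (background 17.3% and 8.85%). Acod1, which makes itaconate, had 35.2 and 74.0 TPM with alum and 3.59, 2.51 and 3.55 TPM with PBS, a log2 change of 3.64 ± 0.33, adjusted p = 4.6e-06, and 3.67 after length adjustment (2581 nt), with alum replicate 2 about 2 times replicate 1. Ptgs2, the inducible cyclooxygenase, had 11.1 and 9.58 TPM in the alum libraries, against 0.607, 0.728 and 0.483 TPM in the PBS libraries, a log2 change of 2.82 ± 0.44, adjusted p = 0.00027, and 2.58 after length adjustment (4448 nt), and Ptges, the prostaglandin E synthase that works with it, 7.03 and 6.61 TPM with alum, against 0.882, 0.970 and 1.10 TPM with PBS, a log2 change of 1.98 ± 0.32, adjusted p = 0.00038, and 1.82 after length adjustment. Alox5ap, the helper of 5-lipoxygenase in leukotriene synthesis, had 161 and 160.5 TPM with alum and 334, 439 and 407 TPM with PBS, a log2 change of -1.28 ± 0.15, adjusted p = 2.5e-05, and -0.58 after length adjustment (1007 nt). Alum and PBS libraries were apart in all 4, as in 69.2% of all genes tested.

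In the BCL2 family and its neighbours, 5 of 17 rose and 3 fell (background 17.3% and 8.85%). The survival genes Cflar (c-FLIP), Bcl2l1 and Mcl1 had 92.1 and 99.0 TPM, 88.4 and 96.1 TPM and 827 and 849.5 TPM with alum, against 21.8, 19.9 and 24.1 TPM, 35.8, 33.8 and 32.4 TPM and 391, 338 and 399.8 TPM with PBS. Their log2 changes were 2.08 (1.68 after length adjustment), 1.41 (1.43 after length adjustment) and 1.16 (1.02 after length adjustment). The 3 that fell, Bmf, Bbc3 and Bad, all encode BH3-only proteins, which promote apoptosis. Bmf had 3.83 and 3.27 TPM in the alum libraries, against 16.7, 16.0 and 19.5 TPM in the PBS libraries, a log2 change of -2.02 ± 0.17, adjusted p = 2.2e-06, and -2.27 after length adjustment (4634 nt), and Bbc3 (PUMA) 4.73 and 5.13 TPM with alum, against 10.4, 10.9 and 10.1 TPM with PBS, a log2 change of -0.95 ± 0.16, adjusted p = 0.00037, and -0.77 after length adjustment. Bcl2 rose too (a log2 change of 1.05 ± 0.16, adjusted p = 0.00025, and 0.64 after length adjustment). Bid, another gene of the BH3-only class, rose (a log2 change of 0.63 ± 0.10, adjusted p = 0.00032, and 0.83 after length adjustment), and Bcl2l11 (BIM) was not called. Bcl2 was not called without alum replicate 1 or alum replicate 2.

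Macrophage identity genes leaned lower: of 20, 2 rose and 5 fell, with a median of -0.35, and of -0.33 after length adjustment. Maf, a factor of resident macrophages, had 110.0 and 91.0 TPM with alum and 203, 181 and 191 TPM with PBS, a log2 change of -0.93 ± 0.21, adjusted p = 0.0032, and -1.09 after length adjustment (3639 nt). Cebpa, a myeloid factor, had 126 and 115 TPM in the alum libraries, against 199, 197 and 184 TPM in the PBS libraries, and Fcgr1, the high-affinity Fcγ receptor, 73.1 and 65.0 TPM with alum, against 145, 117 and 115 TPM with PBS. Cd86, a costimulatory ligand, rose (a log2 change of 0.74 ± 0.16, adjusted p = 0.0025, and 0.78 after length adjustment), as did Mrc1, the mannose receptor (a log2 change of 0.93 ± 0.18, adjusted p = 0.0012, and 0.62 after length adjustment). Spi1, which encodes PU.1, had 409.7 and 383 TPM with alum and 416, 456 and 438 TPM with PBS with no call. The fall count was 1 without either alum library and 3 without PBS replicate 3. Of 10 genes of MHC class II presentation limma called 0 by the rule above, with 1 higher and 5 lower at an unadjusted p under 0.05 as deposited, and H2-Aa had 115 and 141 TPM in the alum libraries, against 177, 182 and 189 TPM in the PBS libraries. Cebpa was not called without alum replicate 1 or alum replicate 2, Fcgr1 not without alum replicate 1, alum replicate 2 or PBS replicate 1, and Mrc1 not without alum replicate 1 or PBS replicate 2.

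The 12 falls named by size after length adjustment were taken among genes with a mean of at least 5 TPM, an NM accession, no overlap with another gene on the same strand and no overlap between the alum and PBS libraries. All but Ptpn18 and Frat1 have a listed length over 3000 nt, while Tpt1, left out by the rule for its overlap and given below, is listed as short and fell further. Abcd2, a peroxisomal fatty acid transporter, had 1.34 and 1.47 TPM with alum, against 8.71, 8.79 and 9.86 TPM with PBS, a log2 change of -2.07 ± 0.17, adjusted p = 1.8e-06, and -2.41 after length adjustment (5725 nt). Tifab, a regulator of TRAF6 signalling, had 4.72 and 6.51 TPM with alum and 24.5, 26.0 and 33.7 TPM with PBS, a log2 change of -2.14 ± 0.29, adjusted p = 8.6e-05, and -2.27 after length adjustment (3493 nt), and Abhd15 1.60 and 1.97 TPM in the alum libraries, against 9.82, 9.07 and 14.2 TPM in the PBS libraries, a log2 change of -2.09 ± 0.22, adjusted p = 1.2e-05, and -2.19 after length adjustment (3245 nt). Frat1, an inhibitor of GSK3, had 0.891 and 1.48 TPM with alum, against 7.19, 7.89 and 9.22 TPM with PBS, and Ptpn18, a phosphatase, 10.2 and 6.71 TPM with alum and 43.4, 51.1 and 45.9 TPM with PBS, a log2 change of -2.36 ± 0.21, adjusted p = 3.6e-06, and -2.01 after length adjustment (1556 nt). Pald1, Gprc5c, Ssh2 (a cofilin phosphatase) and Enc1 had log2 changes of -1.72 (-1.95 after length adjustment), -1.69 (-1.89 after length adjustment), -1.42 (-1.89 after length adjustment) and -1.55 (-1.81 after length adjustment). Bmf, Ccr2 and Rps20, given elsewhere, complete the 12. In the other particle groups, which share these PBS libraries, Abcd2 had 0.297, 0.0760 and 0.455 TPM with MSUc and 0.241, 0.356 and 0.438 TPM with CPPD. Enc1, at 31.9 and 27 TPM with alum, had 9.30, 8.45 and 7.90 TPM with MSUc, 11.5, 10.2 and 12.7 TPM with CPPD and 85.6, 84.5 and 93.5 TPM with PBS.

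Ribosomal protein genes were lower with alum, and less so once length was taken out. Their median log2 change over 78 tested was -1.29, and -0.39 after length adjustment (median length 729 nt). As deposited 60 were called down, and 43 fell by the rule above, while 1 rose (Rpl24, at 2.13 and 1.25 TPM in the alum libraries, against 0.575, 0 and 0.854 TPM in the PBS libraries). After length adjustment alone 11 of the 78 were called higher and 43 lower (background 21.8% and 11.5%). Of the 49 with a mean of at least 20 TPM, 48 were called down as deposited and 39 fell. Many members have near-identical copies or overlap other genes on the same strand, so single values are uncertain. Rps20 had 12.6 and 12.4 TPM with alum, against 42.6, 50.7 and 36.3 TPM with PBS, a log2 change of -1.69 ± 0.14, adjusted p = 1.7e-06, and -1.82 after adjustment by its listed length of 3440 nt. As for every gene, that is the length of 1 listed RefSeq transcript, and whether it is the one sequenced was not tested. Rplp2 had 32.0 and 42.6 TPM with alum and 305, 312 and 253 TPM with PBS, a log2 change of -2.93 ± 0.45, adjusted p = 0.00023, and -1.72 after length adjustment (431 nt), and Rplp0, a common reference gene, 375 and 359.9 TPM in the alum libraries, against 634, 698 and 650.0 TPM in the PBS libraries, a log2 change of -0.84 ± 0.09, adjusted p = 2e-05, and -0.39 after length adjustment (1351 nt). All the alum values were lower than all PBS values in these 3. Of 19 other mRNAs that start with an oligopyrimidine tract, 3 rose and 8 fell (1 and 4 without alum replicate 2). The largest change was in Tpt1, with 22.6 and 23.0 TPM with alum, against 659, 545 and 511 TPM with PBS, a log2 change of -4.58 ± 0.88, adjusted p = 0.0011, and -3.78 after length adjustment (886 nt), a locus that overlaps another gene on the same strand. Eef1a1 had 2104 and 2025 TPM with alum and 2237, 2466 and 2399.6 TPM with PBS and Eef2 923 and 1022 TPM in the alum libraries, against 811, 853 and 917 TPM in the PBS libraries, with no call. Rpl24 was not called without alum replicate 1, alum replicate 2, PBS replicate 1 or PBS replicate 2, and Rplp2 not without alum replicate 1. Median-of-ratios scaling ended the call of Rpl24.

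Nuclear genes of the respiratory chain had a median of -1.17 over 75, and of -0.30 after length adjustment (median length 745 nt), with 63 called down as deposited, 34 falls and 1 rise (Ndufab1). After length adjustment alone 4 were called higher and 34 lower. Uqcrq, of complex III, had 13.7 and 12.1 TPM with alum, against 41.2, 50.1 and 40.7 TPM with PBS, a log2 change of -1.69 ± 0.11, adjusted p = 3.5e-07, and -1.34 after length adjustment (1521 nt), and Ndufa11, of complex I, 4.79 and 4.95 TPM with alum and 12.01, 13.3 and 12.8 TPM with PBS, a log2 change of -1.22 ± 0.12, adjusted p = 1e-05, and -1.21 after length adjustment (2655 nt). Atp5e had 39.0 and 42.0 TPM in the alum libraries, against 197, 216 and 181 TPM in the PBS libraries, a log2 change of -2.26 ± 0.10, adjusted p = 4.8e-08, and -1.10 after length adjustment (409 nt). These 3 had groups apart, as did 69.2% of all genes tested. Mitochondrial ribosomal proteins gave -0.71 and -0.23 over 77, with 18 falls and no rise. After length adjustment alone 8 of these 77 were called higher and 21 lower. Proteasome subunits show a turn of sign: their median over 37 was -0.32 as deposited and 0.23 after length adjustment. As deposited 6 were called up and 18 down (background 27.1% and 19.2%). After length adjustment alone 15 were called higher and 4 lower (background 21.8% and 11.5%). By the rule that needs both fits 6 rose and 4 fell (background 17.3% and 8.85%). The rises were 3 without alum replicate 1 or with median-of-ratios scaling, and the falls 2 without alum replicate 2 or PBS replicate 1. Psmd11 and Psmd1, of the regulatory particle, rose (a log2 change of 0.82 ± 0.12, adjusted p = 0.00013, and 1.09 after length adjustment and a log2 change of 0.87 ± 0.11, adjusted p = 4.8e-05, and 0.77 after length adjustment), and Psmb9, of the immunoproteasome, fell (a log2 change of -1.65 ± 0.21, adjusted p = 5.5e-05, and -0.77 after length adjustment). Ndufab1 was not called without alum replicate 1, alum replicate 2, PBS replicate 1 or PBS replicate 3, and Psmb9 not without alum replicate 1 or PBS replicate 1. Median-of-ratios scaling ended the call of Ndufab1.

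**Figure D4:**
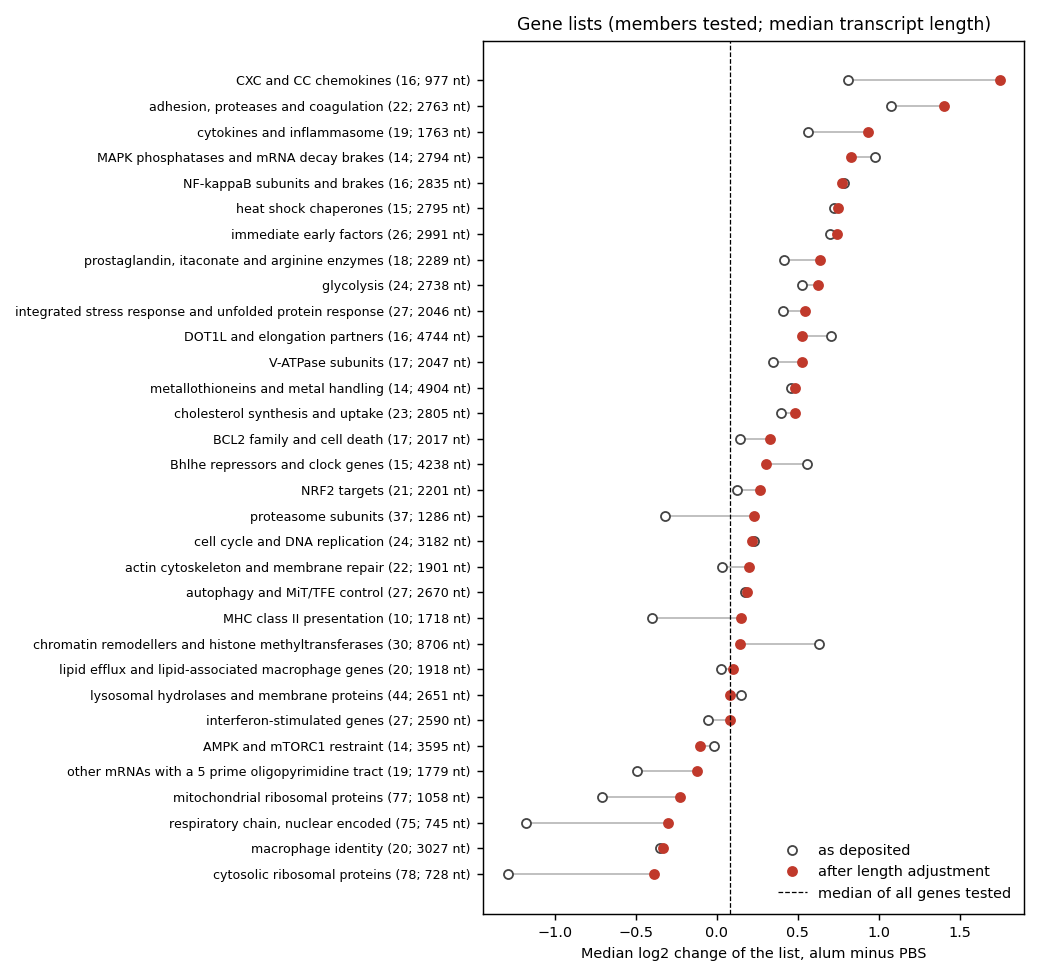
Median log2 change, alum minus PBS (x axis), of each gene list (rows, with the number tested and the median transcript length), as deposited (open circles) and after length adjustment (filled circles). Ribosomal, respiratory and proteasome lists of short genes move far to the right on adjustment, and the chromatin list of long genes moves left.

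Of 24 cell cycle genes 2 rose and 2 fell: Mki67 had 17.4 and 21.8 TPM with alum, against 5.56, 8.90 and 9.32 TPM with PBS and Cdk1 4.02 and 2.90 TPM with alum and 5.82, 11.5 and 7.04 TPM with PBS. Actin and membrane repair genes had 6 rises and no fall among 22 (background 17.3% and 8.85%), led by Vcl, vinculin (67.8 and 51.1 TPM in the alum libraries, against 28.2, 22.5 and 26.1 TPM in the PBS libraries, a log2 change of 1.18 ± 0.16, adjusted p = 9.6e-05, and 0.87 after length adjustment). Their median of 0.04 (all genes 0.08) turned to -0.07 with median-of-ratios scaling. Without alum replicate 2 the rises were 2, and 3 without replicate 1. Mki67 was not called without alum replicate 1, alum replicate 2 or PBS replicate 1, and Cdk1 not without alum replicate 2. Median-of-ratios scaling ended the call of Mki67.

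Markers of other cell types moved with some of these groups, and their part in the results was not tested. Dendritic cell markers summed to 80.6 to 101 TPM with alum and 48.8 to 53.3 TPM with PBS. Cd83 made up most of that, with 76.9 and 67.0 TPM with alum, against 44.4, 42.5 and 42.8 TPM with PBS, and of 5 tested Cd83, Ccr7 and Fscn1 rose, while Flt3, Clec9a, Zbtb46 and Siglech were under 1 TPM. Mast cell and basophil markers summed to 7.11 to 11.0 TPM with alum and 1.81 to 2.71 TPM with PBS. That was the receptor gene Kit, at 4.93 and 9.17 TPM with alum and 0.947, 0.628 and 0.806 TPM with PBS, a log2 change of 2.12 ± 0.21, adjusted p = 8.3e-06, and 1.82 after length adjustment, and Fcer1a, Tpsb2 and Mcpt4 were at 0. Stromal and erythroid markers summed to 90.9 to 292 TPM with alum and 42.3 to 108 TPM with PBS. Col1a1 had 89.9 and 24.8 TPM in the alum libraries, against 30.7, 17.5 and 11.3 TPM in the PBS libraries, so alum replicate 1 stood apart, as it did for Lif and Ccl7 above. Neutrophil markers overlapped in their summed level, at 104 to 143 TPM with alum and 91.8 to 160 TPM with PBS, and Ly6g was at 0. Most are short (median 878.5 nt), and after length adjustment alone 4 of 8 were called higher and none lower (background 21.8% and 11.5%), with a median of 1.19, against 0.38 as deposited. As deposited 1 was called higher and 1 lower. Ltf, lactoferrin, rose by the rule in both fits, with 10.3 and 5.75 TPM with alum, against 2.97, 4.33 and 1.82 TPM with PBS. S100a8 went the other way as deposited, with 17.6 and 7.40 TPM with alum, against 39.9, 47.2 and 20.6 TPM with PBS. S100a9 overlapped, with 43.5 and 27.9 TPM with alum, against 45.1, 44.8 and 19.2 TPM with PBS. Lymphocyte markers summed to 7.70 to 9.52 TPM with alum and 5.15 to 7.86 TPM with PBS, with Cd3d at 0. Fscn1 and Ltf were not called without alum replicate 1.

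Set directly against MSUc (3 libraries), alum gave 6559 calls, 53.3% of genes tested, 5141 higher (41.7%) and 1418 lower (11.5%). This split depends on scaling, since the median of all genes was 0.32 as deposited and -0.04 with median-of-ratios scaling, which gave 2122 higher and 3042 lower. A gene is therefore called higher or lower with alum here only if 4 settings called it in 1 direction, with and without length adjustment and with and without that scaling. That left 1314 higher (10.7%) and 787 lower (6.39%). Against CPPD (3 libraries) the calls were 6160 (50%), 4587 higher (37.3%) and 1573 lower (12.8%), or 1864 and 2719 after scaling (median 0.28, then 0.00), and the 4 settings left 1086 higher (8.82%) and 860 lower (6.98%).

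Stress and inflammatory genes were lower with alum than with MSUc. NRF2 targets were lower in 16 of 21, the integrated stress response list in 16 of 27, immediate early factors in 15 of 26 and chemokines in 9 of 16, with none higher in any of these 4 lists. Hmox1 had 934 and 1009 TPM with alum and 4077, 4206 and 4341 TPM with MSUc, and Slc7a11 8.88 and 13.5 TPM with alum and 74.8, 81.7 and 74.5 TPM with MSUc. Il1b had 6.82 and 6.16 TPM with alum and 159, 53.8 and 20.6 TPM with MSUc. The ranges did not meet in any of the 3, though the MSUc libraries differ much among themselves for Il1b. Procr, above PBS with alum, had 14.9 and 23.5 TPM with alum and 233, 289 and 297 TPM with MSUc, and Nos2, inducible nitric oxide synthase, 1.21 and 0.774 TPM with alum and 42.3, 12.2 and 3.75 TPM with MSUc.

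Higher with alum than with MSUc were 16 of 23 cholesterol genes and 11 of 24 cell cycle genes, with none lower. Insig1 had 94.6 and 93.1 TPM with alum and 33.8, 32.3 and 34.1 TPM with MSUc (log2 difference 1.46 ± 0.11, adjusted p = 3.2e-06). Ccnd1, cyclin D1, had 57.4 and 43.6 TPM with alum and 8.94, 8.66 and 7.64 TPM with MSUc (log2 difference 2.44 ± 0.14, adjusted p = 6.2e-07). Sgsh, a lysosomal sulfatase, had 50.2 and 56.9 TPM with alum and 7.20, 8.24 and 9.15 TPM with MSUc, Rasgrp3 28.1 and 31.5 TPM with alum and 2.76, 4.07 and 4.23 TPM with MSUc, and Gpr162 49.3 and 75.2 TPM with alum and 6.67, 9.07 and 11.0 TPM with MSUc. For Sgsh and Rasgrp3 the PBS libraries, at 47.6, 47.0 and 49.4 TPM and 21.0, 20.3 and 21.4 TPM, lay near the alum level, and neither rose nor fell with alum.

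Against CPPD, 27 of 27 interferon-stimulated genes were lower with alum. Ifit1 had 14.5 and 30.6 TPM with alum and 260.4, 282 and 211 TPM with CPPD (log2 difference -3.50 ± 0.57, adjusted p = 0.00047). Rsad2 had 21.9 and 44.2 TPM with alum and 304, 379 and 230.4 TPM with CPPD, and Gbp5 3.39 and 6.32 TPM with alum and 51.5, 81.2 and 42.6 TPM with CPPD. Cytokine genes were lower in 11 of 19 and higher in 1, and chemokine genes lower in 8 of 16 and higher in 1. Acod1 had 35.2 and 74.0 TPM with alum and 479, 809 and 623 TPM with CPPD, and Saa3 10.6 and 35.6 TPM with alum and 428, 413 and 316 TPM with CPPD. Each of these genes had alum values under every CPPD value.

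Immediate early factors ran the other way against CPPD, with 8 of 26 higher with alum and 2 lower. Fosb had 23.6 and 35.8 TPM with alum and 1.02, 2.13 and 0.443 TPM with CPPD (log2 difference 3.85 ± 0.31, adjusted p = 4.8e-06). Fos had 182 and 147 TPM with alum and 74.7, 74.7 and 81.5 TPM with CPPD, and Jun 184 and 189 TPM with alum and 106, 109 and 117 TPM with CPPD. Egr1, Klf4, Myc, Nr4a1 and Nr4a2 were higher too, and Atf3 and Egr2 lower. In the list of MAPK phosphatases and mRNA decay factors 6 of 14 were higher, as Dusp8 shows at 4.54 and 5.29 TPM with alum and 0.797, 1.36 and 1.35 TPM with CPPD. Bag3, Hspa1a and Hsph1 were the 3 of 15 heat shock genes that were higher. Cholesterol genes were higher in 8 of 23 and cell cycle genes in 11 of 24, with none lower in either list, while NRF2 targets were lower in 15 of 21. Hmox1 had 934 and 1009 TPM with alum and 2343, 3022 and 2574 TPM with CPPD. Among the 8 genes highest by the rule were pancreatic enzymes, Ctrb1 with 13.3 and 12.1 TPM with alum and 2.79, 2.94 and 2.67 TPM with CPPD, and PBS replicate 2 also stood out there (5.56, 16.8 and 5.14 TPM in the PBS libraries). Ctgf, a matrix protein of stromal cells, was higher with alum at 72.0 and 27.8 TPM, against 8.71, 12.7 and 4.40 TPM with CPPD, with alum replicate 1 the highest as for collagen.

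**Figure D5:**
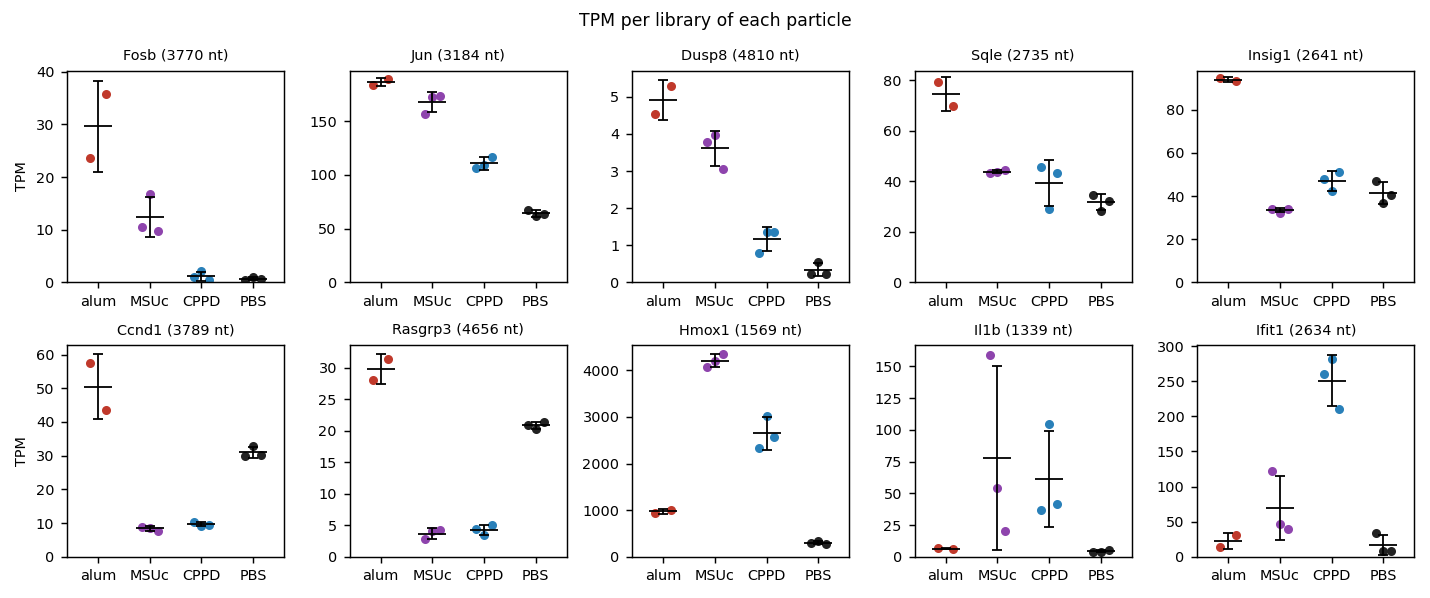
TPM of 10 genes in the alum, MSUc, CPPD and PBS libraries (left to right in each panel); points are libraries, the dash is the group mean and the bars its SD. Fosb, Sqle, Insig1 and Ccnd1 are highest with alum, Hmox1 and Il1b are higher with MSUc and CPPD than with alum, and Ifit1 is highest with CPPD.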

How the data were processed

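RNA from bone marrow-derived macrophages was sequenced in 13 libraries of the particle experiment (2 alum, 3 PBS, 3 MSUc, 3 CPPD and 2 silica). The authors deposited 1 table with a transcript length, 1 RefSeq transcript for each gene symbol and 1 value for each library. STAR, HOMER and mm10 are named in the submitters' processing notes, and their versions and settings are not given in the sources used here. The header names no unit. The deposited values were taken as TPM, since value times length was a whole multiple of 1 step in each library (at least 99.97% of values, within 0.15 of a read), and the columns sum to 528079 to 556652. That step gave depths of 4324097 to 18481790 reads. Reads were counted by the authors before deposit, and whether the counting used strand is not given, so genes that overlap others cannot be separated from them; 1097 of the genes tested overlap another on the same strand. Of 11 pairs of replicates none differed by so little as sampling noise (chi-square per degree of freedom of at least 3.39). The silica pair was the least alike, at 25.1, against at most 10.3 in the other pairs. Without the silica libraries alum against PBS gave 6334 calls, beside 5694 with them. 1 column of per-sample values, the third silica column, was not used, because the labels give silica 2 samples.

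The test was limma 3.58.1 (R 4.3.3) with a trend on log2(TPM + 1), all 13 libraries in 1 fit with group as the only term, 2-sided, with Benjamini-Hochberg adjustment over the 12314 genes that reached 1 TPM in at least 2 libraries. The edgeR test planned for counts was not run, because the values were taken as TPM and not as counts. Fold changes are on the log2(TPM + 1) scale and understate those of low genes. For length adjustment a lowess curve (span 0.3) of each library's log2 difference from the PBS mean on log2 length, less the curve's median, was subtracted. Gene lists are described by counts and medians without a set test. The members, lists and named genes were chosen with earlier results of these data known.

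Genes were named as the 12 largest rises and 12 largest falls after length adjustment (called in both fits, absolute log2 change of at least 1, mean of at least 5 TPM, no overlap between groups, NM accession, no same-strand overlap), 8 in each direction for MSUc and CPPD, the members with the smallest p in each list, and 6 genes described earlier. Further members of the lists were named after their values were seen, and some members are not reported here. Alternatives were another pseudocount, filter, scaling, set of libraries or variance model, voom on the recovered reads (5882 calls), a replicate block and each library left out in turn. The procedure was tested on simulated data. Promoters are RefSeq windows of 300 bases (GRCm38.p6), matched by symbol for 9321 tested genes, of which 8951 start within 100 bases of the deposited start. Figures and tables used Python 3.11.15, numpy 2.4.6, pandas 2.3.3, scipy 1.17.1 and matplotlib 3.10.9.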

Additional observations from a re-analysis of the deposited data

How the results depend on the processing

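The alum values rest on 2 libraries, and both carry the length trend, so the trend and the treatment cannot be told apart. Length adjustment also removes any change that follows length, and a call that needs both fits leaves such genes out. At 4324097 to 18481790 reads, genes near 1 TPM have few reads and a wide error, and log2(TPM + 1) understates their change. For the direct contrasts, the share of higher and lower calls depends on the scaling between libraries.

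Alum against PBS gave 3791 to 6334 calls under the other settings tried and 4229 to 5046 with 1 library left out, beside 5694. Genes called in 1 direction with and without length adjustment numbered 2823 to 4321 under the other settings, beside 3215, and 2029 to 2687 with 1 library left out, the lowest without alum replicate 2. Deviations from the group mean correlated across genes at 0.07 for replicate 1 and -0.05 for replicate 2 of alum and PBS. With 2 alum libraries these deviations mirror each other, so the values say little on pairing. Alum replicate 2 correlated with replicate 3 of PBS, MSUc and CPPD at 0.14, 0.14 and 0.12. With replicate 2 of those groups it gave -0.046, -0.058 and -0.024. Whether the second alum column belongs with replicate 2 of the other groups was not tested. Between MSUc, CPPD and PBS, same-numbered libraries correlated at 0.049 to 0.21 and others at -0.18 to 0.012, and each library correlated best with its own number, a hint from the data and not the design. The alum and PBS libraries were therefore treated as sharing only a number. The replicate block, which takes the alum column numbers as they stand, gave 5475 calls, 3791 together with length adjustment, and 3005 in 1 direction in both. Against MSUc, median-of-ratios scaling with length adjustment, an alternative chosen after seeing the data, gave 4286 calls beside 6559, and 5082 to 5978 were called with 1 library left out. Against CPPD the same scaling gave 3523 beside 6160, and 4403 to 5587 were called with 1 library left out. The gap in rho of level with length, 0.16 between alum and PBS, was 0.24 for genes at 5 TPM or more in 2 libraries and 0.19 for genes with NM accessions. What moved these values was not tested.

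For the 221 genes named, 3955 of 4189 log2 changes recomputed under another setting kept their direction and their side of the threshold, 86 lost the call, 82 gained it and 66 turned sign. Of the genes that turned, Atp6v0e, Kmt2c, H2-Aa and Ftl1 were called as deposited, and none is given above as risen or fallen. Length adjustment turned 14, giving -0.31 for Abca1, 0.21 for Casp1, 0.29 for Cd14, 0.28 for Chac1, -0.025 for Csf1r, 0.051 for Eef1a1, 0.23 for Ftl1, 0.13 for H2-Aa, 0.074 for Hsf1, -0.062 for Kmt2c, -0.10 for Mtf1, 0.19 for Nqo1, -0.080 for Sgsh and 0.26 for Spi1. With median-of-ratios scaling added it turned 15, giving -0.40 for Abca1, 0.11 for Casp1, 0.18 for Cd14, -0.093 for Cdk9, 0.25 for Chac1, -0.12 for Csf1r, 0.11 for Ftl1, 0.019 for H2-Aa, -0.15 for Kmt2c, -0.18 for Mtf1, 0.13 for Nqo1, -0.058 for Prkaa1, -0.17 for Sgsh, 0.15 for Spi1 and -0.0059 for Tfe3. With the replicate block and length adjustment 13 turned, giving -0.34 for Abca1, 0.00040 for Atp6v0e, 0.18 for Casp1, 0.29 for Cd14, 0.15 for Chac1, 0.047 for Eef1a1, 0.24 for Ftl1, 0.22 for H2-Aa, 0.061 for Hsf1, -0.053 for Kmt2c, -0.072 for Mtf1, 0.33 for Nqo1 and 0.30 for Spi1. The replicate block alone turned 4, giving -0.057 for Csf3, -0.045 for Ddit3, -0.0052 for Il6 and 0.032 for Itgam, and median-of-ratios scaling alone 2, giving -0.094 for Ddit3 and -0.081 for Fth1. The voom weights turned 2, giving 0.43 for Chac1 and 0.0070 for Hsf1, and the pseudocount of 0.1 turned 1, giving 0.0034 for Chac1. With 1 library left out, 9 turned in at least 1 case, with ranges of -0.10 to 0.037 for Arntl, -0.18 to 0.16 for Cd14, -0.23 to 0.20 for Chac1, -0.025 to 0.14 for Csf3, -0.25 to 0.26 for Ddit3, -0.046 to 0.10 for Fth1, -0.081 to 0.058 for Hsf1, -0.12 to 0.040 for Itgam and -0.43 to 0.0098 for Nqo1.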
